A study of Homo sapiens with 6 samples.

Results

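The genes described here are 10 genes of the Hippo pathway and its YAP/TAZ output, taken by symbol from count tables that list 28278 gene symbols. They are the coactivators YAP1 and WWTR1 (the gene of TAZ), the DNA-binding partners TEAD1 and TEAD4, the angiomotin genes AMOT, AMOTL1 and AMOTL2, and the target genes CCN1, CCN2 and MYOF. All 10 symbols were in the tables and all 10 passed the filter on low counts. Polyadenylated RNA of the human colon carcinoma line RKO had been sequenced in 3 libraries of cells labelled GSK3B knockout and 3 of cells labelled GSK3B wild-type. The labels name no other allele, agent or time, nor do they give the method of knockout or say whether its cells were 1 clone. Nor do they say that replicates were separate cultures, so p-values measure the spread between these libraries, which may be technical. The comparison asks how transcript levels differ between cells labelled knockout and cells labelled wild-type. An effect of GSK3B cannot be told apart from other differences between these cells.

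In the Hippo pathway the kinases STK3 and STK4, with the scaffold SAV1, activate the kinases LATS1 and LATS2, which act with MOB1 proteins. LATS kinases phosphorylate YAP and TAZ, which are then held in the cytoplasm or degraded. Unphosphorylated YAP and TAZ enter the nucleus and act on transcription through TEAD proteins. Angiomotins bind YAP and TAZ at junctions and on actin filaments, and can also promote their phosphorylation by LATS. GSK3 kinases are known to phosphorylate TAZ at a site that marks it for a ubiquitin ligase. Because this control acts largely on protein location and stability, levels of YAP1 and WWTR1 transcript are not a measure of YAP or TAZ activity. Transcripts of target genes lie downstream of that activity, which was itself not measured here.

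CCN2 is the textbook TEAD target, and the 250 bases before its RefSeq start are shown for the TEAD core they hold. They are printed beside those of AMOTL2, which is also a YAP/TAZ target, and of AMOTL1 and MYOF, which changed in the knockout. Of the 10 genes 7 matched the RefSeq table used, and CCN1, TEAD1 and TEAD4 did not, so nothing is said of their promoters. Sequences are from RefSeq on GRCh38.p14, 5′ to 3′ in the direction of the gene. They cover chr6:131951373-131951622 (minus strand) for CCN2, chr3:134374448-134374697 (minus strand) for AMOTL2, chr11:94768106-94768355 (plus strand) for AMOTL1 and chr10:93482335-93482584 (minus strand) for MYOF. AMOTL2 has 2 listed starts, and the second is shown because it holds matches. The AMOTL1 and AMOTL2 windows precede RefSeq starts inside the spans that GENCODE 29 gives these genes (94706431 to 94876753 and 134355874 to 134375479). They therefore do not describe the sequence before the GENCODE starts. Capitals mark matches on either strand to the TEAD core GGAATG or the TCF/LEF core CTTTGA. The AP-1 motif TGANTCA was also searched and matched in none of the promoters listed for these genes.
CCN2: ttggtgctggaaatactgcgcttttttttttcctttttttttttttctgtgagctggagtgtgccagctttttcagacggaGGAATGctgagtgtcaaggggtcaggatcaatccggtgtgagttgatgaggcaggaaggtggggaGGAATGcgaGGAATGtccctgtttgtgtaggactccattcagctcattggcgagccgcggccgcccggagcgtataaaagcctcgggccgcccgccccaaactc
AMOTL2: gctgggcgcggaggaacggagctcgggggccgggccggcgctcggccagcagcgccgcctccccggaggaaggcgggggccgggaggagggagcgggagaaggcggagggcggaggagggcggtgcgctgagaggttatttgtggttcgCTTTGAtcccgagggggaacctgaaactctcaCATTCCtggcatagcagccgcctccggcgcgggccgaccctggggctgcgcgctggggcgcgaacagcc
AMOTL1: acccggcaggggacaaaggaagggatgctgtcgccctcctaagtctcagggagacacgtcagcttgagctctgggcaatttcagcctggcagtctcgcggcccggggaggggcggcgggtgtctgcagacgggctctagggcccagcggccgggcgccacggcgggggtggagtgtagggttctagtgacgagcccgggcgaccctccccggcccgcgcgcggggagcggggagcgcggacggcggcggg
MYOF: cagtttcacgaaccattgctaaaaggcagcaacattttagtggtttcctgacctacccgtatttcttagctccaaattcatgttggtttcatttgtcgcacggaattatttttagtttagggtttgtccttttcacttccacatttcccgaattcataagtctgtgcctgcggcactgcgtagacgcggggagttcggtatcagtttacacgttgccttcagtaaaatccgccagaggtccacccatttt

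The CCN2 window held 3 copies of GGAATG, beginning 169, 104 and 95 bases before the start. The AMOTL2 window held 1 copy on the opposite strand, 69 bases before the start, and 1 CTTTGA, 101 bases before it. YAP1 also had 1 GGAATG, 162 bases before its start. No searched motif was found in the windows of AMOTL1, MYOF, AMOT or WWTR1, or at the first start of AMOTL2, which says only that these letters are not in those windows. Of 35116 promoters in the table, 11.9% held GGAATG, 11.2% held CTTTGA and 6.57% held TGANTCA in a window of that size. A match is a description of the sequence and was not tested as a binding site.

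Library totals ran from 32379369 to 33558362 counts, so depth differed little between the groups. The targeted gene GSK3B had 46.0, 47.5 and 47.1 CPM (the count divided by the TMM-scaled library size, times 1000000) in knockout replicates 1 to 3, against 99.0, 97.6 and 91.4 CPM in wild-type replicates 1 to 3. The knockout level was 48.8% of wild type, so transcript was still counted in cells labelled knockout. Across all 14409 genes tested by edgeR's quasi-likelihood test with Benjamini-Hochberg adjustment, 1951 (13.5%) passed an adjusted threshold of 0.05. Of these 917 (6.36% of genes tested) rose and 1034 (7.18%) fell in the knockout. The share that rose was 47.0%, but 34.6% (649 higher, 1229 lower) when libraries were scaled by total alone. With a correction for GC content whose fitted curve also set the scale it was 65.1% (1984 higher, 1063 lower), and with the curve centred on its median 30.9% (710 higher, 1585 lower). Of 7 epithelial markers, KRT8, KRT18, VIL1 and CDX2 had 15.4 to 76.1 CPM in every library, KRT19 had at most 0.152 CPM, and CDH1 was listed at 0 in all 6. EPCAM had 1.03, 1.06 and 1.11 CPM in knockout replicates 1 to 3, against 3.62, 4.28 and 2.40 CPM in wild-type replicates 1 to 3, with no overlap. Summed over 6 fibroblast markers the level was 0.870 to 1.14 CPM in the knockout and 2.19 to 5.89 CPM in wild type, so that all wild-type libraries lay above all knockout libraries. PDGFRB was the most abundant of these markers in every library. It had 0.792, 0.560 and 0.781 CPM in knockout replicates 1 to 3, against 1.61, 2.14 and 2.01 CPM in wild-type replicates 1 to 3. COL1A1 had 0.213, 0.311 and 0.361 CPM in knockout replicates 1 to 3, against 0.577, 0.397 and 1.83 CPM in wild-type replicates 1 to 3. COL1A2, COL3A1, DCN and LUM were at or near 0 except in wild-type replicate 3, at 0.691, 0.540, 0.751 and 0.060 CPM. The part of these marker differences in the results that follow was not tested.

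Of the 10 genes, AMOTL1 rose, AMOT, CCN1 and MYOF fell, and 6 did not pass the test. That is 40% called, against 13.5% of all genes tested (6.36% rose and 7.18% fell). The 10 were chosen with earlier results of these data known, so their share is a description. AMOTL1 reached 1.44 times its wild-type level, while CCN1 and MYOF stood at 71.8% and 73.5% of theirs. Neither coactivator gene and neither TEAD gene passed. In bulk RNA, fewer cells with a transcript and less of it per cell cannot be told apart. Both directions occurred within the angiomotin family, where AMOTL1 rose and AMOT fell. The 10 genes' median log2 fold change was -0.01, against 0.00 over all genes tested. Knockout and wild-type libraries did not overlap for 8 of the 10, where 31.3% of all genes tested did not overlap, but for 4 of those 8 the difference was small and did not pass.

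**Figure D1:**
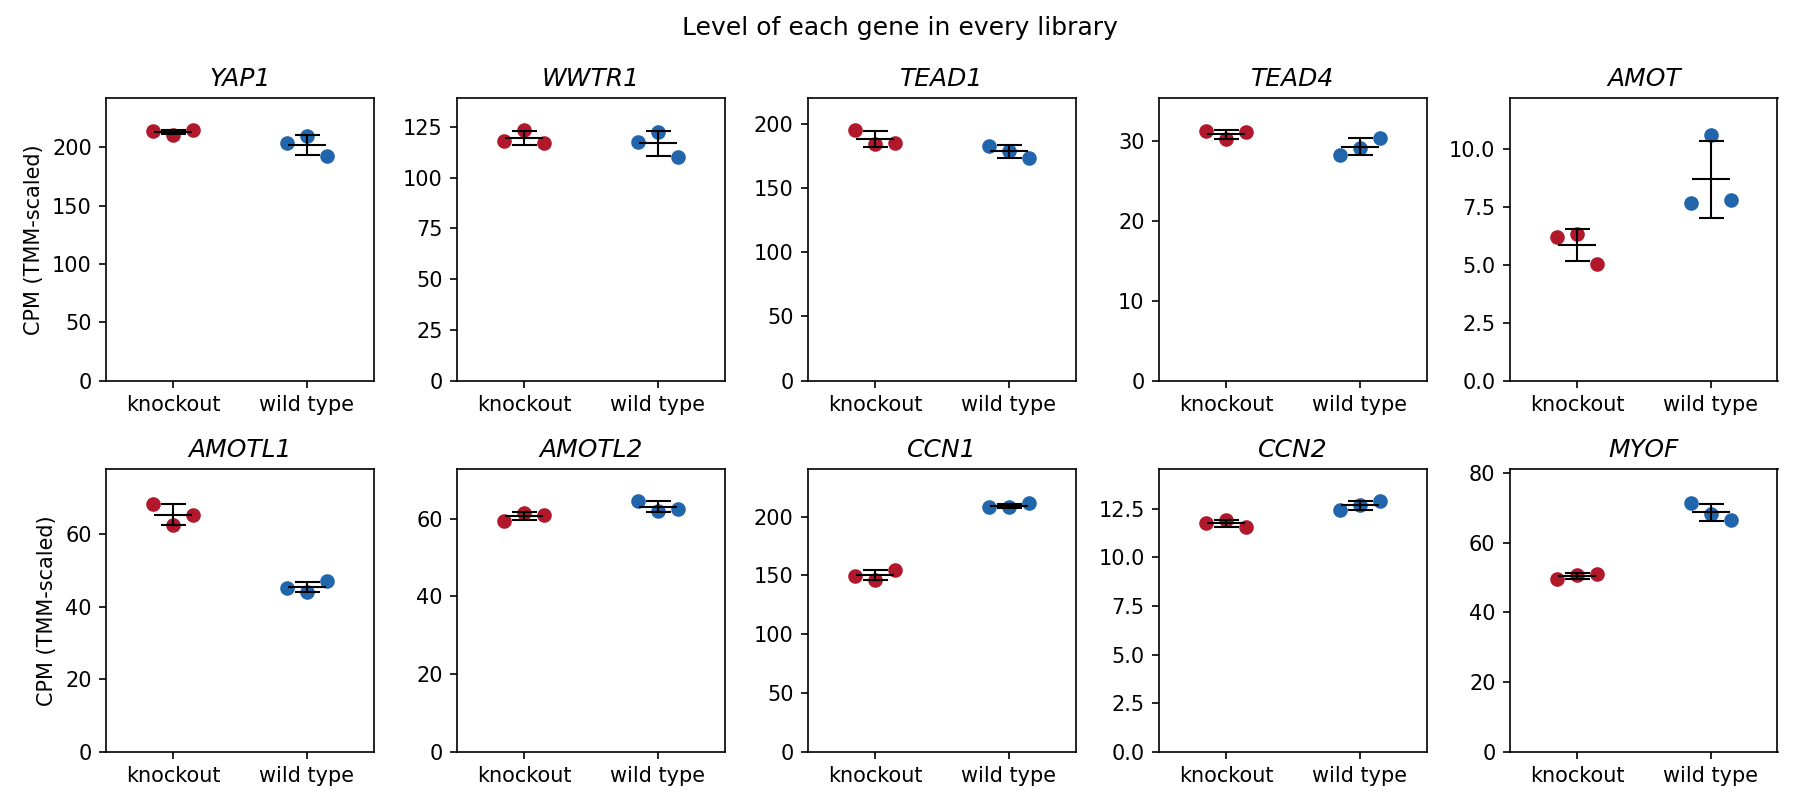
Level of each of the 10 genes in CPM on TMM-scaled library sizes (vertical axes start at 0). Points are libraries, 3 knockout (red, left) and 3 wild type (blue, right), with the mean and SD in black. AMOTL1 lies between 62.5 and 68.4 CPM in the knockout, above all wild-type libraries, and CCN1 and MYOF lie below theirs.

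The coactivators came first in the comparison. YAP1 encodes a transcriptional coactivator and lies on chromosome 11 (102110461 to 102233423, plus strand, in GENCODE 29 on hg38). It had 214, 211 and 214 CPM in knockout replicates 1 to 3, against 204, 209 and 192 CPM in wild-type replicates 1 to 3. Every knockout library lay above every wild-type library, by as little as the gap from 211 to 209 CPM. The knockout level was 106% of wild type (95% interval 99.8 to 112; log2 fold change 0.08 ± 0.04 SE, n = 3 per group; edgeR adjusted p = 0.200). WWTR1, whose product TAZ is the paralog of YAP, lies on chromosome 3 (149517235 to 149736714, minus strand). Its level was 118, 124 and 117 CPM in knockout replicates 1 to 3, against 118, 123 and 110 CPM in wild-type replicates 1 to 3, so that the groups overlapped. At 102% of wild type (95% interval 95.7 to 109) it did not pass (edgeR adjusted p = 0.702). YAP1 and WWTR1 each share exon positions with an annotated antisense gene, and the strand setting of the counting is not given in the sources used here.

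TEAD1 and TEAD4 encode transcription factors that recruit YAP and TAZ to DNA. TEAD1 (chromosome 11, 12674591 to 12944483, plus strand) had 196, 184 and 185 CPM in knockout replicates 1 to 3, against 183, 179 and 174 CPM in wild-type replicates 1 to 3. Its libraries did not overlap, yet at 105% of wild type (95% interval 99.5 to 112) it did not pass (edgeR adjusted p = 0.221). TEAD4 (chromosome 12, 2959330 to 3040673, plus strand) had 31.3, 30.2 and 31.1 CPM in knockout replicates 1 to 3, against 28.3, 29.2 and 30.4 CPM in wild-type replicates 1 to 3. Those ranges overlapped in the interval around 30 CPM, and TEAD4 stood at 105.5% of wild type (95% interval 96.3 to 115; edgeR adjusted p = 0.466). Both intervals include 100% and reach past 110%. The paralogs TEAD2 and TEAD3, named here after their values were seen, had log2 fold changes of 0.03 and -0.05 and did not pass either.

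The angiomotin family held the largest rise among the 10 genes, that of AMOTL1, and with all 6 libraries also the largest fall, that of AMOT. Without wild-type replicate 2 the falls of CCN1 and MYOF were both larger than that of AMOT. On the log2 scale CCN1 was then at -0.48 and AMOT at -0.40, and MYOF was at -0.42 or lower in all 18 alternatives. AMOTL1, angiomotin-like 1, is a junctional and actin-associated scaffold gene on chromosome 11 (94706431 to 94876753, plus strand). It had 68.4, 62.5 and 65.2 CPM in knockout replicates 1 to 3, against 45.2, 44.1 and 47.1 CPM in wild-type replicates 1 to 3. The lowest knockout library was far above the highest wild-type library. The log2 fold change was 0.52 ± 0.05 (SE, n = 3 per group; edgeR adjusted p = 3.26e-07), or 144% of wild type (95% interval 133 to 155). Ranked by fold among the 891 genes that rose and averaged 5 CPM or more, it was at rank 10. AMOTL1 also shares exon positions with an annotated antisense gene, so with the strand setting unknown its counts may hold some reads of that gene.

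AMOT, the founding member, named for its binding of angiostatin, lies on chromosome X (112774503 to 112840815, minus strand). It was scarce, with 204, 204 and 168 counts in knockout replicates 1 to 3 and 253, 348 and 260 counts in wild-type replicates 1 to 3. On the CPM scale that was 6.21, 6.34 and 5.05 in the knockout, against 7.69, 10.6 and 7.81 in wild type. Each knockout library was below each wild-type library, and wild-type replicate 2 stood well above the other wild-type libraries. The log2 fold change was -0.57 ± 0.13 (SE, n = 3 per group; edgeR adjusted p = 0.00587), or 67.4% of wild type (95% interval 55.6 to 81.6). Without wild-type replicate 2 it was -0.40 and did not pass (edgeR adjusted p = 0.0815), while over all 18 alternatives the adjusted p ran from 9.32e-05 to that value.

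AMOTL2, a YAP/TAZ target as well as an inhibitor of YAP, lies on chromosome 3 (134355874 to 134375479, minus strand). It had 59.5, 61.4 and 60.9 CPM in knockout replicates 1 to 3, against 64.6, 61.9 and 62.5 CPM in wild-type replicates 1 to 3. The libraries did not overlap but came within 1 CPM of each other, and AMOTL2 stood at 96.1% of wild type (95% interval 89.5 to 103; edgeR adjusted p = 0.495).

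Because AMOTL1 rose and AMOT and AMOTL2 did not, the make-up of the family differed between the groups. Per kilobase of longest transcript, AMOTL1 made up 35.2%, 32.5% and 33.9% of the summed family level in knockout replicates 1 to 3, against 24.7%, 24.5% and 26.1% in wild-type replicates 1 to 3. The share of AMOTL2 was 62.4% ± 1.4 in the knockout and 69.0% ± 1.0 in wild type, and the share of AMOT was 3.7% ± 0.4 in the knockout and 5.9% ± 1.2 in wild type (SD, n = 3 each). The family's summed level was 21.5 ± 0.11 CPM per kilobase in the knockout and 20.2 ± 0.17 in wild type (SD, n = 3 each). The ratio of AMOTL1 to AMOT, which does not depend on how libraries are scaled, was 8.98, 8.04 and 10.5 in knockout replicates 1 to 3, against 4.80, 3.38 and 4.92 in wild-type replicates 1 to 3. The ratio of AMOTL1 to AMOTL2 was 0.544 ± 0.033 in the knockout and 0.364 ± 0.014 in wild type, again with no overlap. Shares and ratios are given without a test, since AMOTL1 was already known to have risen.

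**Figure D2:**
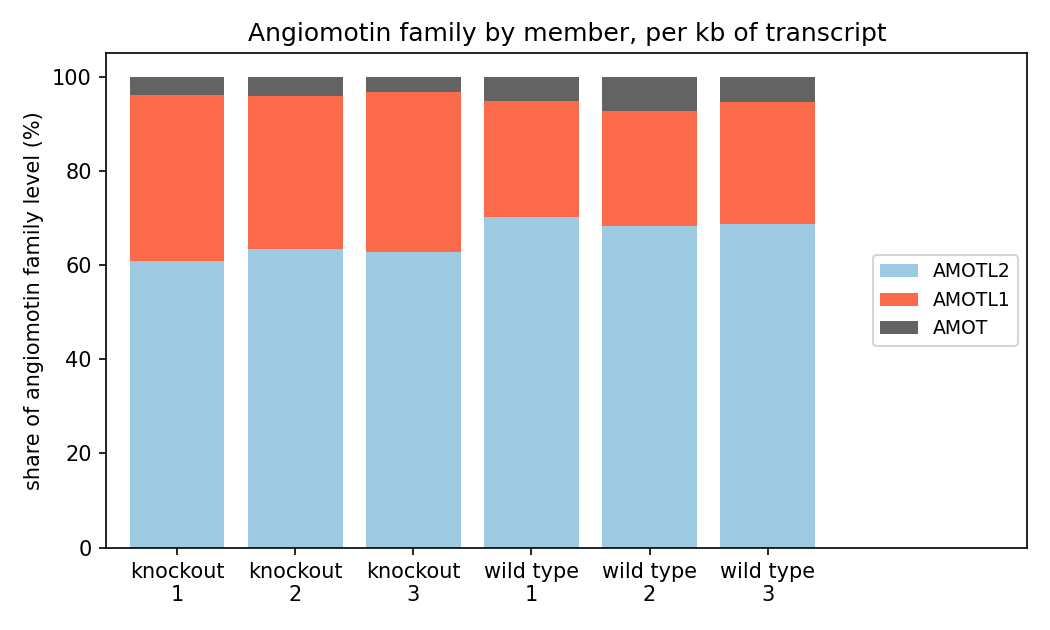
Share of each angiomotin gene in the family's summed level per kilobase of longest transcript, in percent, for 3 knockout libraries (left) and 3 wild-type libraries (right). AMOTL1 takes 32.5% to 35.2% in the knockout and 24.5% to 26.1% in wild type, and AMOT is the smallest part in every library.

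The target genes did not move alike. CCN1, also called CYR61, encodes a secreted matricellular protein and is among the earliest described YAP/TAZ targets. It lies on chromosome 1 (85580761 to 85583962, plus strand) and had 150, 146 and 154 CPM in knockout replicates 1 to 3, against 208, 208 and 211 CPM in wild-type replicates 1 to 3. The wild-type libraries differed by only a few CPM and all knockout libraries lay far below them. The log2 fold change was -0.48 ± 0.04 (SE, n = 3 per group; edgeR adjusted p = 8.90e-09), or 71.8% of wild type (95% interval 67.9 to 75.9).

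CCN2, or CTGF, encodes connective tissue growth factor, the relative of CCN1 whose promoter carries the GGAATG copies shown above. It lies on chromosome 6 (131948176 to 131951373, minus strand) and had 11.8, 11.9 and 11.6 CPM in knockout replicates 1 to 3, against 12.5, 12.7 and 12.9 CPM in wild-type replicates 1 to 3. All knockout libraries were below all wild-type libraries by a small margin. At 92.7% of wild type (95% interval 81.8 to 105) it did not pass (edgeR adjusted p = 0.453). CCN2 shares exon positions with an annotated antisense gene. The ratio of CCN1 to CCN2 per kilobase was 13.0, 12.5 and 13.6 in knockout replicates 1 to 3, against 17.1, 16.8 and 16.7 in wild-type replicates 1 to 3, so CCN1 was lower in the knockout relative to CCN2 as well.

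MYOF encodes myoferlin, a membrane protein of the ferlin family that acts in membrane repair and trafficking, and lies on chromosome 10 (93306429 to 93482317, minus strand). It had 49.5, 50.7 and 51.1 CPM in knockout replicates 1 to 3, against 71.2, 68.2 and 66.6 CPM in wild-type replicates 1 to 3. The groups were clearly separate. The log2 fold change was -0.44 ± 0.05 (SE, n = 3 per group; edgeR adjusted p = 1.81e-06), or 73.5% of wild type (95% interval 68.3 to 79.1). Without wild-type replicate 3, which stood apart from the other libraries in COL1A2, COL3A1 and DCN, CCN1 and MYOF both had a log2 fold change of -0.47 and passed (edgeR adjusted p = 1.36e-11 and 3.65e-08). AMOTL1 and AMOT passed without that library too, at 0.55 and -0.64 (edgeR adjusted p = 7.26e-09 and 0.00208). The other wild-type libraries still exceeded the knockout in summed fibroblast markers, so these fits do not remove that difference.

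**Figure D3:**
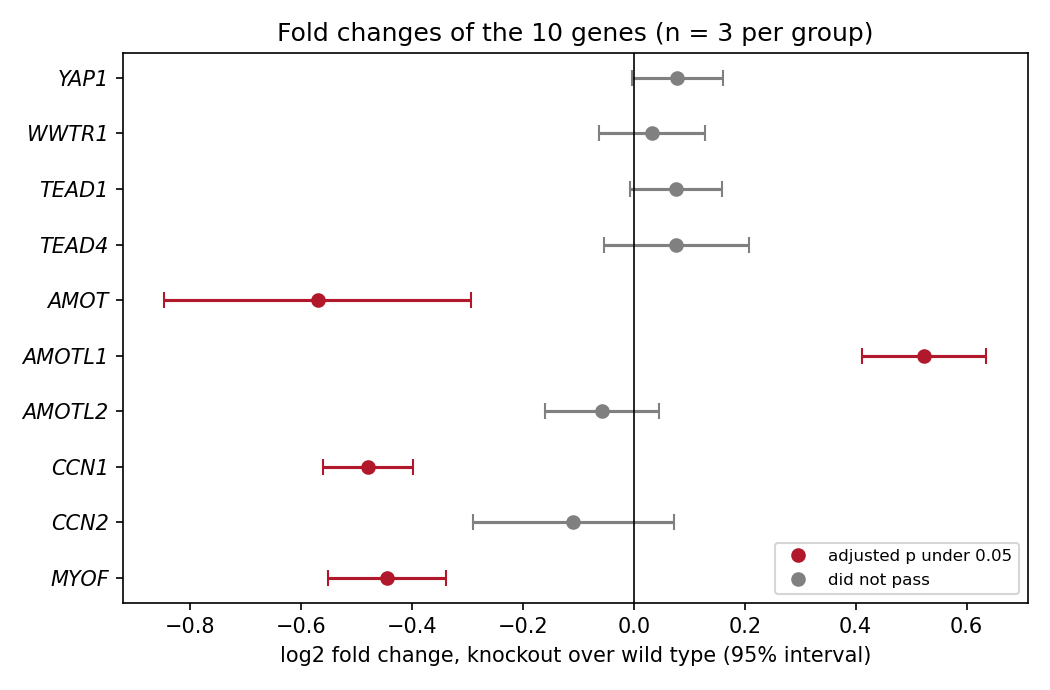
Log2 fold change of each of the 10 genes, knockout over wild type, with its 95% interval from edgeR's quasi-likelihood fit (n = 3 per group). Red marks an adjusted p under 0.05: AMOTL1 at 0.52 on the right, and AMOT, CCN1 and MYOF at -0.57, -0.48 and -0.44 on the left.

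Levels were compared between genes per kilobase of longest transcript, on the CPM scale. CCN1 was highest in both groups, at 65.5 ± 1.8 in the knockout and 91.3 ± 0.75 in wild type (SD, n = 3 each), followed by YAP1 at 39.4 ± 0.38 in the knockout and 37.4 ± 1.6 in wild type. WWTR1, TEAD1, TEAD4 and AMOTL2 came next in both groups, from 23.8 to 13.4 in the knockout and from 23.2 to 13.9 in wild type. MYOF, AMOTL1 and CCN2 followed, at 7.51, 7.29 and 5.03 in the knockout and 10.2, 5.07 and 5.42 in wild type. AMOT was lowest, at 0.802 in the knockout and 1.19 in wild type. Neighbours in this order were separated in all libraries except MYOF and AMOTL1 in the knockout, whose libraries overlapped. With the gene's whole exon length in place of the longest transcript, TEAD1 came before WWTR1 in both groups, and AMOTL1 before MYOF in the knockout. Among the 13815 tested genes with a transcript length, CCN1 was at percentile 94.6 of mean level, YAP1 at 87.5 and AMOT at 13.6.

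Within a library, ratios between related genes do not depend on scaling. The ratio of WWTR1 to YAP1 per kilobase was 0.592, 0.630 and 0.585 in knockout replicates 1 to 3, against 0.618, 0.629 and 0.617 in wild-type replicates 1 to 3. The ratio of TEAD4 to TEAD1 was 0.803, 0.822 and 0.843 in the knockout, against 0.774, 0.817 and 0.878 in wild type. Both ratios overlapped between the groups.

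Spread between replicates also differed among the 10 genes. The coefficient of variation in the knockout was lowest for YAP1 (0.970%) and highest for AMOT (12.1%). In wild type it was lowest for CCN1 (0.823%) and again highest for AMOT (19.2%). Over tested genes averaging 5 CPM or more the median was 3.56% in the knockout and 5.19% in wild type. Each coefficient rests on 3 libraries and includes counting noise, which is relatively larger at low counts such as those of AMOT (168 to 348). The order of the genes in spread was not tested.

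Other YAP/TAZ target genes were then counted. A known signature of 22 YAP/TAZ targets from many cancers holds AMOTL2, CCN1, CCN2 and MYOF among its members. Of the 22, 17 passed the filter on low counts, 5 fell (CCN1, MYOF, ARHGEF17, CCDC80 and F3), 0 rose and 12 did not pass, where 7.18% of all genes tested fell and 6.36% rose. Without adjustment, 6 were lower and 0 higher in edgeR at p under 0.05. With adjustment, DESeq2 called 4 lower, limma-voom 5 lower, and both 0 higher. Without knockout replicate 3 or wild-type replicate 2, edgeR called 3 lower. The GC correction whose curve also set the scale gave 5 lower and 1 higher, FJX1 (log2 fold change 0.15, edgeR adjusted p = 0.0432). With the curve centred on its median, edgeR called 6 lower and 0 higher. The fold change was below 0 for 15 of the 17 (88.2%), against 49.9% of all genes tested, and their median was -0.08. These counts include CCN1 and MYOF, whose falls are given above. Among the 13 tested signature genes outside the 10 genes, the fold change was below 0 for 11 (84.6%), and their median was -0.07. Most of these differences were small and did not pass. ANKRD1, IGFBP3 and TGFB2 were too low to test, and FOXF2 and RBMS3 were listed at 0 in all 6 libraries. Such zeros are values of the tables and not evidence that a gene is silent.

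Of the 13 tested targets outside the 10 genes, 3 fell and 0 rose, or 23.1% called against 13.5% of all genes. ARHGEF17 had 20.6 ± 0.56 CPM in the knockout and 27.3 ± 1.5 CPM in wild type (SD, n = 3 each; log2 fold change -0.41, edgeR adjusted p = 3.63e-04). CCDC80, which encodes a secreted matrix protein, had 14.4 ± 1.4 CPM in the knockout and 18.6 ± 2.3 CPM in wild type (log2 fold change -0.37, edgeR adjusted p = 0.0104). F3, the tissue factor gene, had 7.99 ± 0.77 CPM in the knockout and 10.1 ± 0.65 CPM in wild type (log2 fold change -0.33, edgeR adjusted p = 0.0397). F3 did not pass with DESeq2 (adjusted p = 0.0542), nor without knockout replicate 1 or 3 or wild-type replicate 2. CCDC80 did not pass without knockout replicate 3 or wild-type replicate 2 (edgeR adjusted p = 0.0811 and 0.0646). The receptor tyrosine kinase gene AXL was the most abundant tested target and is named here after its values were seen. It had 613 ± 7.9 CPM in the knockout and 643 ± 19 CPM in wild type. AXL did not pass (edgeR adjusted p = 0.168). ARHGEF17 and AXL each share exon positions with an annotated antisense gene.

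**Figure D4:**
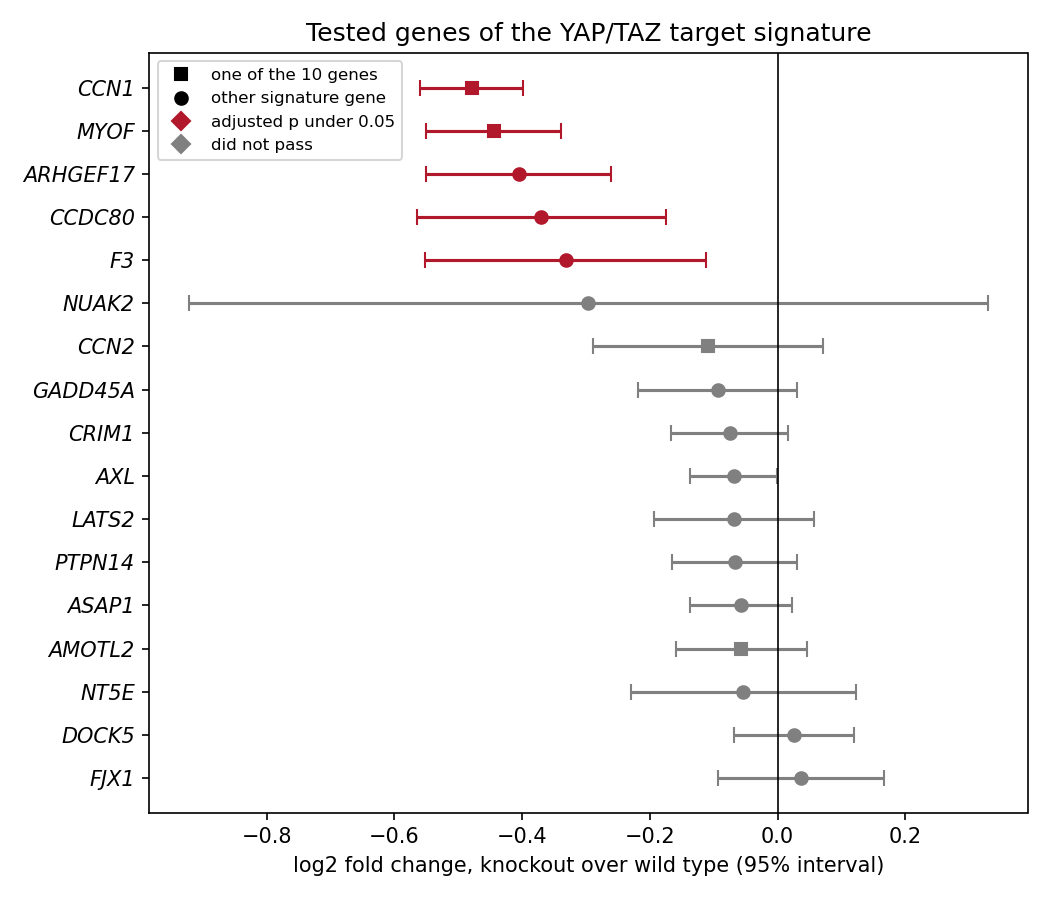
Log2 fold change, knockout over wild type, with its 95% interval for the 17 tested genes of the YAP/TAZ target signature (n = 3 per group). Squares are among the 10 genes and circles are not, and red marks an adjusted p under 0.05. CCN1, MYOF, ARHGEF17, CCDC80 and F3 are the red points, and 15 of the 17 points lie below 0.

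LATS2, a kinase gene and itself a target, stands in both the signature and the core list that follows. Of 16 core kinase and adaptor genes 15 were tested, 1 rose and 1 fell, or 13.3% called against 13.5% of all genes. MOB1A, a LATS cofactor gene, had 258 ± 8.1 CPM in the knockout and 233 ± 12 CPM in wild type (log2 fold change 0.15, edgeR adjusted p = 0.0182). It did not pass after a correction for GC content, at 0.05 (edgeR adjusted p = 0.227), nor without knockout replicate 1 or 2 or wild-type replicate 2. SAV1, the scaffold of the STK3 and STK4 kinases, had 43.6 ± 0.83 CPM in the knockout and 49.3 ± 2.4 CPM in wild type (log2 fold change -0.18, edgeR adjusted p = 0.0396). It passed in only 1 of the 6 fits that left out a library, that without wild-type replicate 3. SAV1 shares exon positions with ATL1.

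VGLL4 encodes a cofactor that competes with YAP for TEAD proteins. It was the changed gene among 3 tested of 6 other TEAD and VGLL genes, with 49.0 ± 1.2 CPM in the knockout and 61.8 ± 4.0 CPM in wild type (SD, n = 3 each). With 3 genes tested, that is 33.3% called against 13.5% of all genes. None of the 3 rose, with 0 higher at an unadjusted p under 0.05 in edgeR and 0 called higher by DESeq2 and limma-voom. Its log2 fold change was -0.34 ± 0.06 (SE; edgeR adjusted p = 2.45e-04), and it passed in all 18 alternatives. It shares exon positions with ATG7 and with an antisense gene. The cofactor genes VGLL1 and VGLL2 were listed at 0 in all 6 libraries, and VGLL3 was too low to test.

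Among 11 genes of angiomotin partners and turnover 2 fell, 0 rose and 9 did not pass, or 18.2% called against 13.5% of all genes. Both were tankyrases, poly-ADP-ribosylating enzymes that mark angiomotins for degradation through the ligase RNF146. TNKS2 had 30.6 ± 0.18 CPM in the knockout and 40.5 ± 1.9 CPM in wild type (SD, n = 3 each; log2 fold change -0.40, edgeR adjusted p = 7.05e-05). TNKS had 63.0 ± 1.9 CPM in the knockout and 71.5 ± 1.7 CPM in wild type (log2 fold change -0.18, edgeR adjusted p = 0.0162). TNKS did not pass without knockout replicate 2 or 3 or wild-type replicate 2 (edgeR adjusted p = 0.0550, 0.104 and 0.0661), and it shares exon positions with an antisense gene. RNF146 itself, named here after its values were seen, was at 26.7 ± 0.86 CPM in the knockout and 26.5 ± 3.4 CPM in wild type. At an unadjusted p under 0.05 edgeR, DESeq2 and limma-voom each had 2 of the 11 higher and 4 lower, and at the adjusted threshold DESeq2 and limma-voom also called 2 lower and 0 higher.

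Of 8 genes of the kinases and ligases that act on the YAP and TAZ degrons, GSK3B, the targeted gene, and CSNK1E fell, and 0 rose. That is 25% called, the targeted gene included, against 13.5% of all genes. CSNK1E, casein kinase 1 epsilon, which phosphorylates YAP after LATS has done so, had 131 ± 2.8 CPM in the knockout and 151 ± 7.3 CPM in wild type (log2 fold change -0.20, edgeR adjusted p = 0.00299). CSNK1E shares exon positions with an annotated readthrough gene. GSK3A, the paralog of GSK3B, stood at 102% of wild type (95% interval 95.3 to 110) and did not pass. At an unadjusted p under 0.05 edgeR, DESeq2 and limma-voom each had 2 lower and 0 higher.

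Of 14 apical polarity and junction genes 10 were tested, 1 rose and 2 fell, or 30% called against 13.5% of all genes. FAT1, an atypical cadherin gene, had 161 ± 0.88 CPM in the knockout and 147 ± 3.8 CPM in wild type (log2 fold change 0.13, edgeR adjusted p = 0.0361). LLGL2 and PARD3, polarity scaffold genes, had log2 fold changes of -0.25 and -0.15 (edgeR adjusted p = 0.0127 and 0.0297). FAT1 did not pass with scaling by library total (edgeR adjusted p = 0.0745) and LLGL2 did not after the GC correction (edgeR adjusted p = 0.0558). All 3 also failed without wild-type replicate 2 and without knockout replicate 3, and FAT1 and PARD3 without knockout replicates 1 and 2. FAT4 and LLGL1 were listed at 0 in all 6 libraries.

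In STRIPAK, the phosphatase complex that opposes STK3 and STK4, 1 of 13 genes rose and 0 fell. STRIP2, a scaffold of that complex, had 112 ± 2.4 CPM in the knockout and 93.8 ± 6.2 CPM in wild type (log2 fold change 0.25, edgeR adjusted p = 0.00117). At an unadjusted p under 0.05 edgeR, DESeq2 and limma-voom each had 3 higher and 1 lower, and DESeq2 and limma-voom called 1 higher and 0 lower. The share called, 7.69%, lay under that of all genes.

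**Figure D5:**
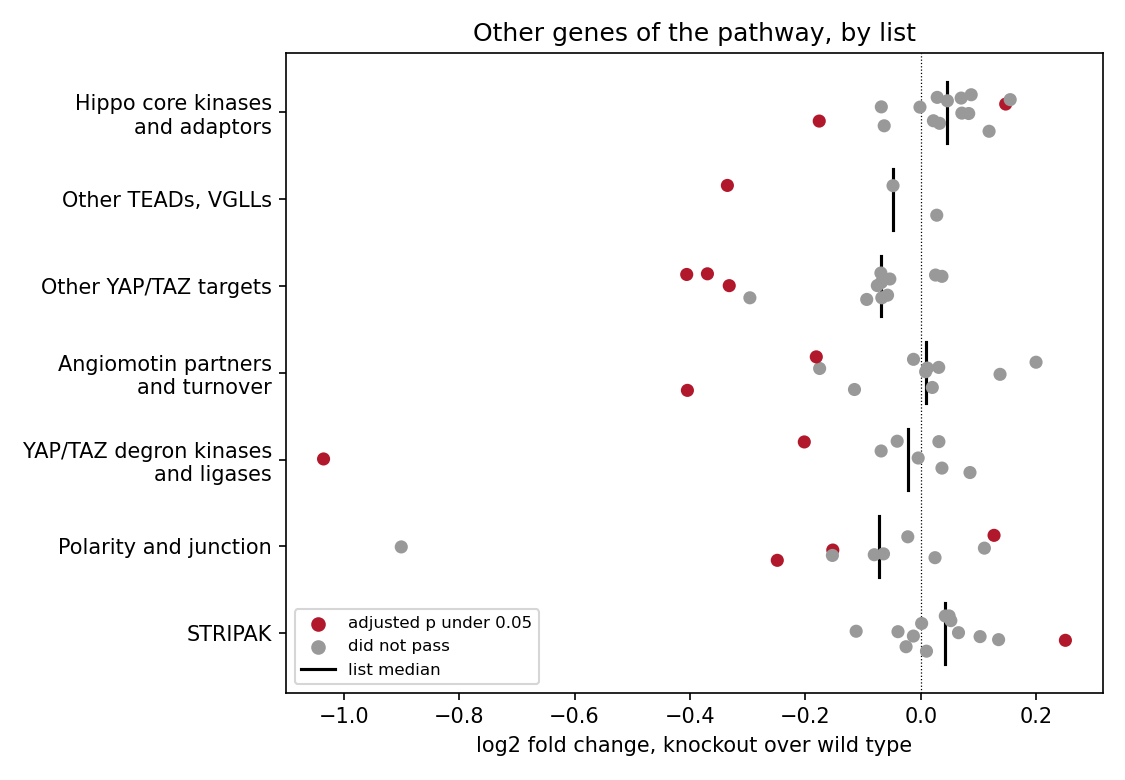
Log2 fold change, knockout over wild type, of the other tested pathway genes in 7 lists (vertical scatter within a list carries no value). Red points have an adjusted p under 0.05 and black bars are list medians, which lie between -0.07 and 0.05. The point at -1.04 is GSK3B.

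Genes whose libraries varied most like AMOTL1 and AMOT were picked as the smallest root mean square difference in centred log2 CPM over the 6 libraries, from 11229 genes averaging 5 CPM or more. Likeness is a description over these libraries, with no test. It includes the difference between the groups, so a direction shared with AMOTL1 or AMOT follows from the selection. For AMOTL1 these were LCP1, ATF5 and SPP1, at differences of 0.06, 0.06 and 0.07. LCP1, which encodes the actin-bundling protein plastin, averaged 429 CPM in the knockout and 312 CPM in wild type. ATF5, a transcription factor gene, averaged 29.9 CPM in the knockout and 22.2 CPM in wild type, and SPP1, the osteopontin gene, 62.9 CPM in the knockout and 43.6 CPM in wild type. For AMOT they were OTUD1, RIMKLA and CYSRT1, at differences of 0.11, 0.12 and 0.12, all 3 lower in the knockout.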

How the data were processed

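Messenger RNA of 6 RKO libraries was analysed, 3 per group, and groups came from the sample titles. The authors deposited 1 table per library of raw counts by gene symbol, as whole numbers without normalization. Per the labels' protocols RNA was extracted with TRIzol and sequenced as paired reads of 150 bases. Per the submitters' processing notes reads went to build hg38, and TopHat, limma and edgeR are named without a role. The program, annotation and strand setting used for counting: not given in the sources used here, as is true of tool versions.

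The test was edgeR 4.0.16 (R 4.3.3) with filterByExpr (minimum count 10, minimum total 15), TMM scaling, a quasi-likelihood fit with group as its only term and robust estimation, and Benjamini-Hochberg adjustment over all 14409 genes with a threshold of 0.05. A standard error is the absolute log2 fold change over the square root of F. The test was tested on simulated data. Within groups the chi-square per degree of freedom between libraries was 3.17 to 9.71, above the sampling noise, and every library was kept as a replicate. Symbols were matched to GENCODE 29 by name, gene identifier or older symbol (26218 of 28278), and lengths and GC content are those of the longest transcript. PALS1 was counted under its older symbol MPP5.

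The genes and lists were chosen with earlier results of these data known. All 10 genes are named, with GSK3B, GSK3A, up to 4 changed genes with the largest change in each list, and the 3 genes most like the member with the largest rise and the member with the largest fall. Genes named at 0, too low to test, or with their values said to have been seen fall outside this rule. Alternatives were RLE scaling, library totals, 2 other filters, the replicate number as a block, a GC correction (per-library spline, 5 degrees of freedom, with TMM recomputed), both together, omission of single libraries, limma-voom (limma 3.58.1), DESeq2 1.42.0 and no robust estimation. Recomputing TMM in the GC correction was chosen after seeing the data, and 2 other scales for it were added then.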

Additional observations from a re-analysis of the deposited data

How the results depend on the processing

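Over 18 alternatives AMOTL1 stayed between 0.49 and 0.56 on the log2 scale, CCN1 between -0.50 and -0.44 and MYOF between -0.47 and -0.42, and all 3 passed in each. AMOT passed in 17, the exception being the fit without wild-type replicate 2. YAP1, WWTR1, TEAD1, AMOTL2 and CCN2 passed in none, and the sign of WWTR1, TEAD1 and AMOTL2 was not the same in all. TEAD4 passed in 1, the GC correction whose curve also set the scale (log2 fold change 0.17, edgeR adjusted p = 0.0241), so that 2 of the 10 genes rose; the cause was not tested. Of all genes, 361 to 1259 were higher and 589 to 1272 lower in fits that left out a library, with 457 and 637 without knockout replicate 1, 361 and 589 without knockout replicate 2, 545 and 660 without knockout replicate 3 and 456 and 616 without wild-type replicate 2. That GC scale gave 1984 higher, and a curve centred on its median gave 1585 lower. The replicate block gave 1080 higher and 1113 lower, and the 10 genes kept 1 higher and 3 lower. Deviations of same-numbered libraries correlated at 0.07, 0.00 and 0.03, and 1 of 3 knockout libraries correlated best with its own number. With 3 libraries per group these values cannot decide whether the numbers pair the libraries. The block made LIN7C, chosen after its values were seen, pass (edgeR adjusted p = 0.0239). Levels per kilobase moved beyond 1 SD with whole exon length for 17 of 20 values. Counts of 168 to 348 limit the precision for AMOT.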
